A study of Mus musculus with 18 samples.

Results

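The genes described here are 10 members of the bone morphogenetic protein (BMP) pathway that were measured in testes of hypogonadal (hpg) mice given follicle-stimulating hormone (FSH). They are the ligands Bmp2 and Bmp4, the receptors Bmpr1a, Bmpr1b and Bmpr2, the inhibitory Smads Smad6 and Smad7, and the target genes Id1, Id2 and Id3. Members were taken by name. A probe set belonged to a member where the array annotation gave it that symbol and no other, and 16 probe sets did, of 20380 with a single symbol, which stand for 12393 genes. For a gene with several probe sets the brightest over all 18 arrays was taken as its main value, and the others are given beside it.

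All 18 animals were adult hpg males, 10 weeks old, which carry no functional gonadotrophin-releasing hormone and so make very little FSH or luteinising hormone. Treated males received 8 IU of recombinant FSH under the skin at 12 h intervals, over 12 h (4 mice), 24 h (3 mice) or 72 h (4 mice), and their testes were collected 1 h after the final dose. The control group was 7 hpg males left untreated. Each mouse gave 1 array of whole testis RNA, so the error between arrays includes the error between animals, and changes in cell numbers and in RNA per cell cannot be told apart. The question of these comparisons is how testicular transcripts respond to FSH over time.

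The arrays fell into 2 sets, and only the control group had arrays in both. The Dap probe sets, which read a bacterial spike-in RNA, had means of 8.05 to 8.86 (log2) on 12 arrays, those of the 12 h mice, the 72 h mice and controls 4 to 7. On the other 6 arrays, those of the 24 h mice and controls 1 to 3, they had means of 2.70 to 3.41. The 18S ribosomal RNA probe sets also differed, with means of 3.35 to 3.70 on the 12 arrays and 9.07 to 11.7 on the 6. The 12 h and 72 h mice were therefore compared with controls 4 to 7, and the 24 h mice with controls 1 to 3, in a single limma fit over all 18 arrays. A probe set was called at a Benjamini-Hochberg adjusted p below 0.05 over all 22626 probe sets tested. All levels are on the deposited log2 scale, on which array medians lay between 4.44 and 4.63. The order of brightness of different probe sets says nothing of the order of their transcripts. A value far below the array median does not show that the transcript was low, since Bmpr1a and Id2 each had both dim and bright probe sets.

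BMPs are secreted ligands of the transforming growth factor beta family. A ligand dimer brings together type I receptors, such as BMPR1A and BMPR1B, and type II receptors, such as BMPR2. The type I receptor phosphorylates SMAD1, SMAD5 and SMAD9, which join SMAD4 and enter the nucleus. Id1, Id2 and Id3 are textbook targets of this pathway, and their proteins bind basic helix-loop-helix transcription factors and keep them from DNA. SMAD6 and SMAD7 damp the signal at the receptor. In the mouse testis BMP4 is known as a Sertoli cell product that acts on spermatogonia, and Id2 and Id3 are expressed in Sertoli cells.

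RefSeq start site sequences of build GRCm38.p6 were searched for 7 of the 10 members, Bmp4, Bmpr1a, Bmpr1b, Bmpr2, Smad6, Id2 and Id3. Those of Bmp2, Smad7 and Id1 were not searched, so nothing is said of their motifs. The 250 bases before the start are shown for Bmp4 (chr14:46390670-46390919, minus strand), Id3 (chr4:136143572-136143821, plus strand) and Id2 (chr12:25096093-25096342, minus strand), the 3 members whose main probe sets had the widest range over the 18 arrays. Capitals mark matches to GGCGCC, a GC-rich element bound by BMP Smads, CAGAC, the Smad box, TGACG, the core of a cyclic AMP response element, or CACGTG, an E-box of the basic helix-loop-helix factors, on either strand.
Bmp4: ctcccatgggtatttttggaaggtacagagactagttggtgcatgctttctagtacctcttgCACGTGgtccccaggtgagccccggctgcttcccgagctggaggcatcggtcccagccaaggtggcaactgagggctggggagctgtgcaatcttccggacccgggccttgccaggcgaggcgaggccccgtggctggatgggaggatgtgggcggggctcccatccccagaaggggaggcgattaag
Id3: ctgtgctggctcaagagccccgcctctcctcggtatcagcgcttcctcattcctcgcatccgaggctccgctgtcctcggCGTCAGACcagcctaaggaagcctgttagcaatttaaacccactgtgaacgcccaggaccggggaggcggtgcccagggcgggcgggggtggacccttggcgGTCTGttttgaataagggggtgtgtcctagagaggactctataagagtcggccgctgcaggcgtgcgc
Id2: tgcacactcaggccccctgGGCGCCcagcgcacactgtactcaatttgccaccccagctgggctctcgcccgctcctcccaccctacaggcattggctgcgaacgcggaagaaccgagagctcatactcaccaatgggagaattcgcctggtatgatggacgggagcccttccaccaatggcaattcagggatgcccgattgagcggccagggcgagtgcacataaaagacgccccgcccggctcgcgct
The Bmp4 window held CACGTG at position -188 from the start. The Id2 window held GGCGCC at -231. The Id3 window held TGACG, on the opposite strand, at -170, which overlapped CAGAC at -167, and a further CAGAC, on the opposite strand, at -68. In windows that also hold the 50 bases after the start, GGCGCC was found in 11.9% of 32851 mouse promoters, CAGAC in 49.6%, TGACG in 20.8% and CACGTG in 7.15%. Of the other members, Bmpr1a had GGCGCC at -198 and Bmpr2 at -105, and of the 3 Bmpr1b windows 1 had CAGAC at -128 and 1 had it, on the opposite strand, at -245. These are matches of letters, and binding was not measured.

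Bmpr1a at 24 h was the single member called against controls in the limma fit without a replicate block. At 12 h Bmp4, Id1 and Id3 averaged lower than controls 4 to 7 and Smad7 higher, with 95% intervals that left out 0 and no call after adjustment over all probe sets. At 12 h, 0 of 10 members were called by limma, against 5.35% of all probe sets (4 members at an unadjusted p below 0.05). At 24 h 1 member, Bmpr1a, was called and was lower, against 13.4% of all probe sets. At 72 h 0 of 10 were called, against 6.13%, and 0 had an unadjusted p below 0.05. With the replicate number as a block 2 members, Bmpr1a and Bmpr1b, were called at 24 h, against 17.9% of all probe sets. Either share of members is close to that of the array as a whole. The median difference of the members was -0.13 at 12 h, -0.05 at 24 h and -0.06 at 72 h, beside -0.00, 0.04 and 0.01 for all genes.

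**Figure D1:**
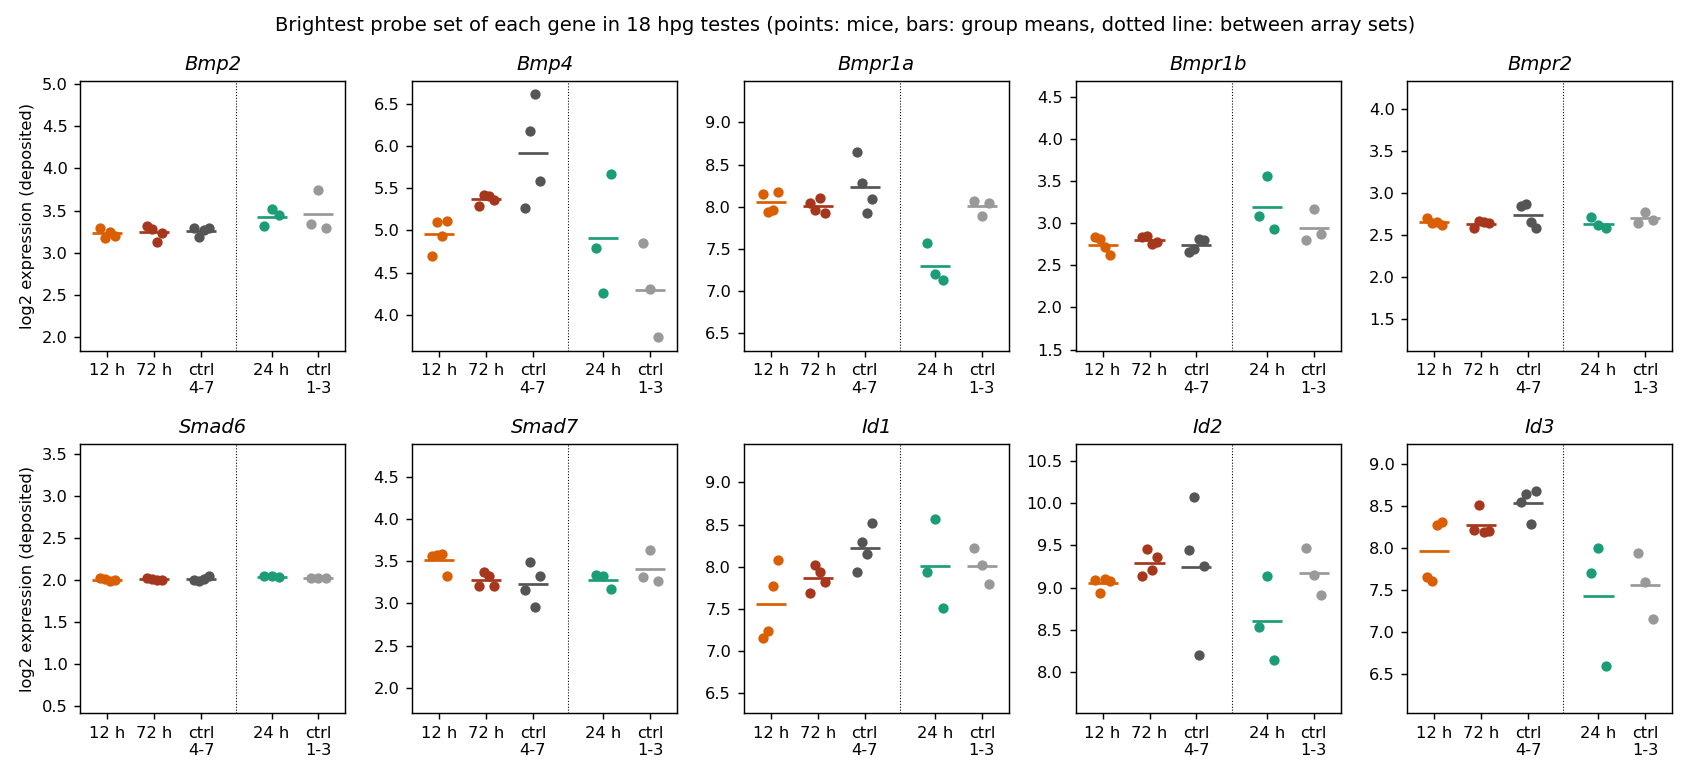
Deposited log2 values (y axis, 3.2 log2 units in every panel) of the main probe set of each gene, 1 point per mouse and a bar at each group mean, with the 12 h and 72 h mice left of controls 4 to 7 and the 24 h mice left of controls 1 to 3. The 24 h points of Bmpr1a (7.13 to 7.57) lie below those of controls 1 to 3 (7.89 to 8.07), and controls 1 to 3 of Bmp4 (3.73 to 4.85) lie below controls 4 to 7 (5.27 to 6.61).

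Bmp4 was the member that varied most, over 2.88 log2 units across the 18 mice. Its level was 4.70, 5.10, 4.93 and 5.11 in the 12 h mice and 5.29, 5.42, 5.40 and 5.36 in the 72 h mice, against 5.27, 6.18, 6.61 and 5.59 in controls 4 to 7. All 12 h mice lay below all of these controls, and the 72 h mice lay among the lower of them. Bmp4 was the 1 member of 10 whose 12 h mice and controls did not overlap, which 10.5% of all probe sets also showed. The 12 h difference was -0.95 ± 0.32 (SE, n = 4 against 4), 1.93-fold lower, with a 95% interval from -1.63 to -0.27, and was not called in the limma fit (adjusted p = 0.112). It was called in 1 of the other settings, with the 12 arrays of that set fitted alone (limma adjusted p = 0.0480). Against all 7 controls, with no array set, it was -0.26. The 72 h difference was -0.54 ± 0.32 (adjusted p = 0.465, limma), and 0 of 10 members lay apart from their controls at 72 h, against 12.6% of all probe sets.

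In the other array set Bmp4 lay on the other side of its controls. Its level was 4.79, 4.26 and 5.67 in the 24 h mice, against 4.85, 4.31 and 3.73 in controls 1 to 3, and the groups overlapped. The difference was 0.61 ± 0.37 (SE, n = 3 against 3, 95% interval -0.17 to 1.40) and was not called (limma adjusted p = 0.261). Without 24 h replicate 3, the highest of them, it was 0.23. The 24 h effect minus the 12 h effect, each against its own controls, was 1.56 and was not called (limma adjusted p = 0.147). The controls themselves differed for this gene, as reported with the array sets further on.

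Bmp2, the other ligand, stayed far below the array median in every mouse, between 3.13 and 3.75. It averaged 3.23 ± 0.05 at 12 h and 3.24 ± 0.08 at 72 h, against 3.26 ± 0.05 in controls 4 to 7 (SD, n = 4 each). At 24 h it averaged 3.43 ± 0.11, against 3.46 ± 0.25 in controls 1 to 3 (SD, n = 3 each). The differences were -0.03, -0.03 and -0.02 at 12, 24 and 72 h. On a probe set this dim they do not show that the transcript was low or unaffected.

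Bmpr1a encodes a type I receptor that binds BMP2 and BMP4. Its main probe set (1425492_at) read 7.57, 7.20 and 7.13 in the 24 h mice, against 8.07, 7.89 and 8.05 in controls 1 to 3. Each 24 h mouse was below each of these controls. The transcript fell by 0.70 ± 0.15 (log2, SE, n = 3 against 3), 1.63-fold, with a 95% interval from -1.03 to -0.38 (limma adjusted p = 0.00782). Bmpr1a and Smad6, whose 24 h mice were higher by 0.02, were the 2 members of 10 with no overlap at 24 h, against 36.9% of all probe sets.

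At the other times the same probe set overlapped with its controls. It read 8.15, 7.94, 7.96 and 8.18 at 12 h and 8.05, 7.96, 8.11 and 7.92 at 72 h, against 8.65, 8.28, 7.93 and 8.09 in controls 4 to 7. The differences were -0.18 ± 0.13 and -0.23 ± 0.13 (SE), with 95% intervals from -0.46 to 0.10 and from -0.51 to 0.05 (limma adjusted p = 0.641 and 0.463). The fall at 24 h was not shown to differ from either, since the 24 h effect minus the 12 h effect was -0.52 (limma adjusted p = 0.237) and the 72 h effect minus the 24 h effect was 0.47 (adjusted p = 0.394).

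Of the 5 probe sets of Bmpr1a, 2 were called at 24 h. The other was 1425494_s_at, which read 6.99, 6.67 and 7.00 in the 24 h mice, against 7.51, 7.20 and 7.62 in controls 1 to 3, and fell by 0.56 ± 0.12 (SE, limma adjusted p = 0.00876). On this probe set controls 4 to 7 read 6.88 to 6.98, below controls 1 to 3 and at the level of the 24 h mice. The dimmer 1425491_at differed by -0.47 with overlapping groups and was not called (adjusted p = 0.154, limma). The bright 1425493_at differed by -0.07, with a 95% interval from -0.39 to 0.26 that leaves out the 24 h difference of the main probe set, so the probe sets of this gene disagreed. The fifth, 1451729_at, lay at 2.12 to 2.84 in all mice, far below the others, and gives no measure of a response. Over the mean of all 5 the fall was 0.39 and was called (limma adjusted p = 0.00799).

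Leaving out any of the 18 arrays kept the Bmpr1a call at 24 h, with differences from -0.83 to -0.62. With the 6 arrays of the set fitted alone the difference was the same and was not called (limma adjusted p = 0.0847). With quantile normalization it was -0.57 and was called (limma adjusted p = 0.0226). The main probe set is bright, and of the 24 h calls among probe sets above the median mean level 30.4% were higher. Whether Bmpr1a fell more than genes of like brightness was not tested. Markers of testis cells also moved at 24 h, when 13.4% of all probe sets were called. Of 8 germ cell markers 3 fell at 24 h (Stra8, Sall4 and Kit), and the mean of all 8 was 8.29 to 8.70 in the 24 h mice, against 9.08 to 9.25 in controls 1 to 3. Of 6 Leydig cell markers 3 rose (Cyp17a1, Cyp11a1 and Star), and their mean was 7.39 to 8.15 in the 24 h mice, against 6.04 to 6.20 in controls 1 to 3. Of 7 peritubular myoid markers 1 rose. Their mean was 7.90 to 8.08 in the 24 h mice, against 7.39 to 7.77 in controls 1 to 3. Of 9 Sertoli cell markers 2 rose and 1 fell, and 1 of 10 endothelial and 1 of 8 macrophage markers fell. The part of these cells in the fall of Bmpr1a was not tested.

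**Figure D2:**
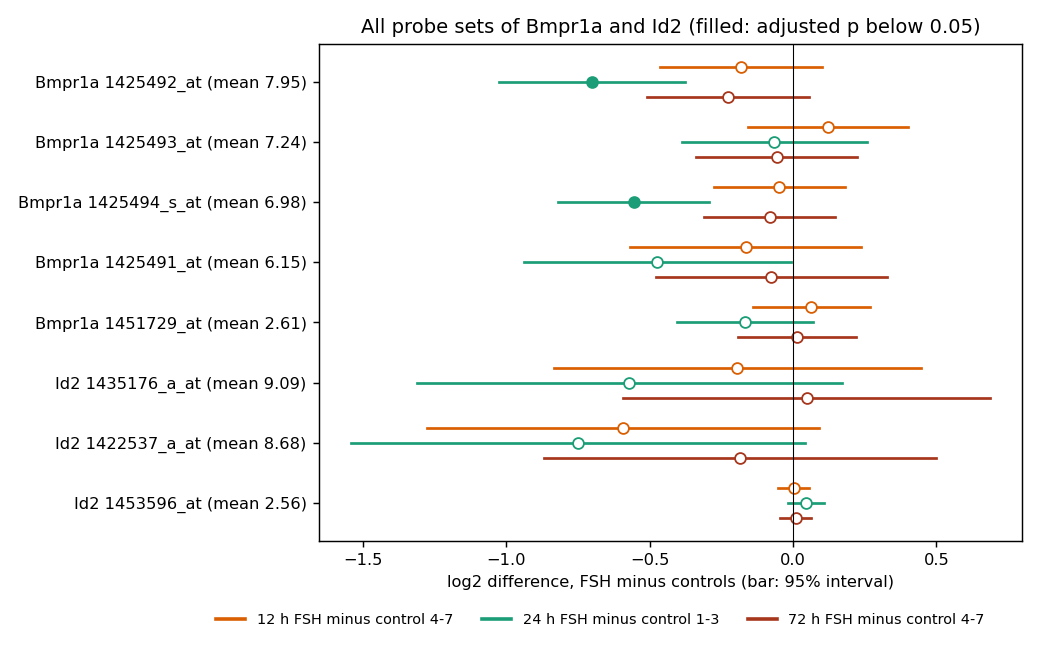
Log2 differences (x axis, points) with 95% intervals (bars) between FSH-treated mice and the controls of the same array set, for the 5 probe sets of Bmpr1a and the 3 of Id2, ordered by mean level within each gene. At 24 h, 2 probe sets of Bmpr1a are filled (-0.70 and -0.56) and 1425493_at lies near 0 (-0.07).

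Bmpr1b, the other type I receptor, and Bmpr2, the type II receptor, each had 1 probe set, and both were dim. Bmpr1b read 3.08, 3.55 and 2.93 in the 24 h mice, against 2.80, 3.17 and 2.87 in controls 1 to 3. The difference was 0.24 ± 0.13 (SE, 95% interval -0.03 to 0.52), and it was not called without a replicate block (limma adjusted p = 0.211). With the replicate number as a block the same difference was called (limma adjusted p = 0.0374). That block rests on correlations between these same 6 mice and not on their labels. Each 24 h mouse was above the control of its own number. Without 24 h replicate 2, the highest, the difference was 0.06. At 12 h and 72 h Bmpr1b differed from controls 4 to 7 by 0.01 and 0.06.

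Bmpr2 lay between 2.58 and 2.87 in all 18 mice. Its differences were -0.08 at 12 h, -0.06 at 24 h and -0.10 at 72 h, with 95% intervals that reach -0.23 at the lowest and 0.08 at the highest. None was called, and a probe set this dim does not show that the transcript was low or unaffected.

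Smad6 and Smad7 encode the inhibitory Smads, which are themselves known BMP targets. The Smad6 probe set sat at the floor of the array, with values from 1.99 to 2.05 in all 18 mice and a mean at percentile 4.19 of all probe sets, and gives no measure of a response. Smad7 was dim but varied more. It read 3.56, 3.57, 3.59 and 3.33 at 12 h and 3.21, 3.38, 3.32 and 3.20 at 72 h, against 3.15, 3.49, 2.96 and 3.32 in controls 4 to 7. The 12 h difference was 0.28 ± 0.11 (SE, 95% interval 0.05 to 0.51) and was not called (limma adjusted p = 0.187). At 24 h Smad7 read 3.33, 3.33 and 3.17, against 3.31, 3.63 and 3.26 in controls 1 to 3, a difference of -0.13 ± 0.12 (adjusted p = 0.501, limma).

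The Id genes were brightly measured, and each had its lowest group mean relative to controls at 12 h or 24 h, with no call. Id1 read 7.15, 7.24, 7.77 and 8.08 in the 12 h mice and 7.69, 8.02, 7.94 and 7.82 in the 72 h mice, against 7.94, 8.29, 8.15 and 8.52 in controls 4 to 7. At 12 h 3 of the 4 mice were below all of these controls, and the fourth was among them. The 12 h difference was -0.66 ± 0.23 (SE, n = 4 against 4, 95% interval -1.15 to -0.18), 1.58-fold lower and not called (limma adjusted p = 0.127). The 72 h difference was -0.36 ± 0.23 (adjusted p = 0.531, limma). At 24 h Id1 read 7.94, 8.56 and 7.51, against 8.22, 8.02 and 7.79 in controls 1 to 3, and the difference was -0.00 with a 95% interval from -0.57 to 0.56.

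Id3 had a similar set of values. It read 7.66, 7.61, 8.28 and 8.31 at 12 h and 8.21, 8.50, 8.18 and 8.21 at 72 h, against 8.54, 8.64, 8.29 and 8.68 in controls 4 to 7. The same 2 of the 12 h mice, replicates 1 and 2, were lowest for Id1 and for Id3. The differences were -0.58 ± 0.27 at 12 h (95% interval -1.15 to -0.00) and -0.26 ± 0.27 at 72 h, and neither was called (limma adjusted p = 0.315 and 0.820). At 24 h Id3 read 7.71, 8.00 and 6.59, against 7.94, 7.59 and 7.15 in controls 1 to 3, a difference of -0.13 ± 0.31 (SE, adjusted p = 0.805, limma) that was 0.29 without 24 h replicate 3.

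Id2 had 3 probe sets, and the dimmest (1453596_at, 2.51 to 2.63 in all mice) lay far below the others and gives no measure of a response. The main one (1435176_a_at) read 8.54, 9.13 and 8.14 in the 24 h mice, against 9.47, 9.15 and 8.91 in controls 1 to 3. The groups overlapped and the difference was -0.57 ± 0.35 (SE, 95% interval -1.31 to 0.17, limma adjusted p = 0.268). The bright 1422537_a_at read 8.67, 8.93 and 7.20, against 9.06, 9.22 and 8.77, a difference of -0.75 ± 0.37 (adjusted p = 0.179, limma).

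At 12 h and 72 h the 2 bright Id2 probe sets differed more from each other. The main one read 9.09, 8.93, 9.10 and 9.08 at 12 h and 9.13, 9.46, 9.21 and 9.36 at 72 h, against 9.44, 10.07, 8.20 and 9.25 in controls 4 to 7. The wide spread of these controls, with an SD of 0.08 in the 12 h mice and 0.78 in the controls, rests on control 5 and control 6. The differences were -0.19 at 12 h and 0.05 at 72 h. Without control 5 they were 0.08 and 0.32, and without control 6 they were -0.54 and -0.30, so their sign and size rest on these 2 mice. For 1422537_a_at they were -0.59 and -0.18, and none was called.

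**Figure D3:**
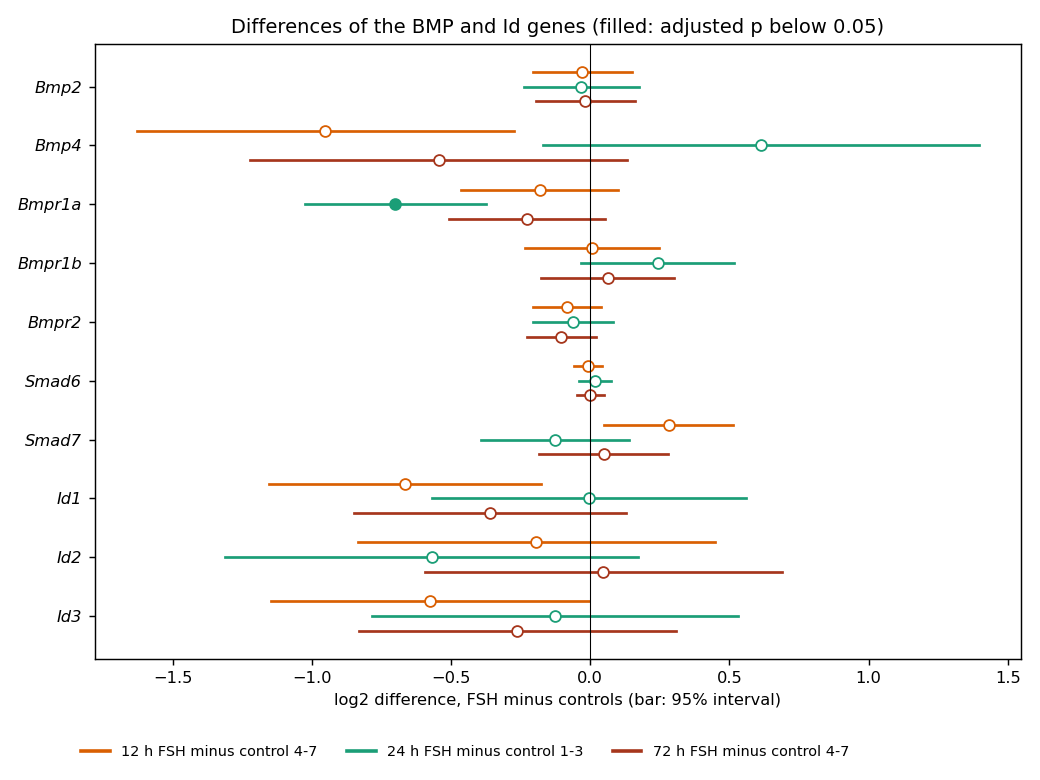
Log2 difference (x axis, points) with its 95% interval (bars) for each of the 10 genes at 12 h, 24 h and 72 h of FSH, each against the controls of its own array set. The single filled point is Bmpr1a at 24 h (-0.70), and the 12 h intervals of Bmp4 (-1.63 to -0.27), Smad7 (0.05 to 0.51), Id1 (-1.15 to -0.18) and Id3 (-1.15 to -0.00) leave out 0 without passing the adjusted threshold.

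Between the times, 0 of 10 members were called for 72 h against 12 h, where 2.36% of all probe sets were (1 member, Smad7, at an unadjusted p below 0.05, with a difference of -0.23). For the 24 h effect minus the 12 h effect 0 of 10 were called, against 0.875% of all probe sets (3 members at an unadjusted p below 0.05). For the 72 h effect minus the 24 h effect 0 of 10 were called, against 0.371% (2 at an unadjusted p below 0.05).

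The untreated mice of the 2 array sets differed for some members. Bmp4 averaged 4.30 in controls 1 to 3 and 5.91 in controls 4 to 7, a difference of -1.62 (limma adjusted p = 0.0100). Id3 averaged 7.56 in controls 1 to 3 and 8.54 in controls 4 to 7, a difference of -0.98 (adjusted p = 0.0476, limma). Neither gene's controls overlapped between the sets, and the share of all probe sets with such a separation was not counted. In all 2 of 10 members, and 4 of their 16 probe sets, were called between the control sets, against 9.31% of all probe sets. The other 2 were probe sets of Bmpr1a that were higher in controls 1 to 3, 1425494_s_at by 0.51 (limma adjusted p = 0.0139) and 1425491_at by 0.86 (adjusted p = 0.0179). The array set and the mice of each set cannot be told apart. Within a set Id3 spanned 7.15 to 7.94 in controls 1 to 3 and 8.29 to 8.68 in controls 4 to 7. Of 10 endothelial markers 2 were lower in controls 1 to 3 than in controls 4 to 7, and their mean was 3.83 to 4.26 in controls 1 to 3 and 4.02 to 4.69 in controls 4 to 7. The mean of 8 macrophage markers was 5.63 to 5.74 in controls 1 to 3 and 5.93 to 6.38 in controls 4 to 7, with none called. The median differences of the markers between the control sets were -0.48 for macrophages, -0.31 for endothelium, -0.20 for peritubular myoid cells and -0.16 for germ cells. For Leydig cell markers it was -0.11, and for Sertoli cell markers it went the other way, at 0.15, beside 0.02 for all genes. Of the 9 Sertoli cell markers 1 was called higher in controls 1 to 3 and 1 lower. The part of these cell types in the differences of Bmp4 and Id3 between the control sets was not tested.

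Id1 and Id3 rose and fell together from mouse to mouse. After the mean of each mouse's own group and array set was removed, their deviations had a Pearson r of 0.854 over the 18 mice (permutation p = 0.00212, adjusted over 6 pairs 0.00636). Spearman's rho was 0.847 (permutation p = 0.00163, adjusted 0.00978). Without the 2 mice farthest from the median of Id1 the r was 0.818. It was 0.842 over the 12 mice of the set with the 12 h and 72 h groups and 0.918 over the 6 mice of the other. These values were permuted within groups 100000 times, two-sided. Each r over the 6 mice, here and below, rests on deviations within groups of 3 and is imprecise. The permutations did not keep same-numbered mice of that set together.

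Id2 and Id3 had an r of 0.592 (permutation p = 0.00163, adjusted 0.00636) and a rho of 0.672 (permutation p = 0.00504, adjusted 0.0151). Within the sets the r of Id2 and Id3 was 0.424 over 12 mice and 0.924 over 6, and without the 2 mice farthest from the median of Id2, control 5 and control 6, it was 0.811. Id1 and Id2 had an r of 0.420 (permutation p = 0.117, adjusted 0.234), 0.134 within the larger set and 0.991 within the smaller. In the smaller set 24 h replicate 3 was the lowest of the 24 h mice for all 3 Id genes, at 7.51, 8.14 and 6.59, and the highest for Bmp4, at 5.67.

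For Bmp4 the same deviations gave an r of -0.134 with Id1, -0.380 with Id2 and -0.295 with Id3 (permutation adjusted p = 0.726, 0.518 and 0.576), and each turned positive, at 0.145, 0.146 and 0.152, without 24 h replicate 3 and control 6. With the controls' mean taken away in place of each group's own, so that treatment effects stay in, the r of Bmp4 was 0.443 with Id1, -0.382 with Id2 and 0.202 with Id3. Whether these correlations differ from those among the Id genes was not tested. Arrays that share a normalization share part of their error, so a mouse's overall array quality is in all of these values.

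**Figure D4:**
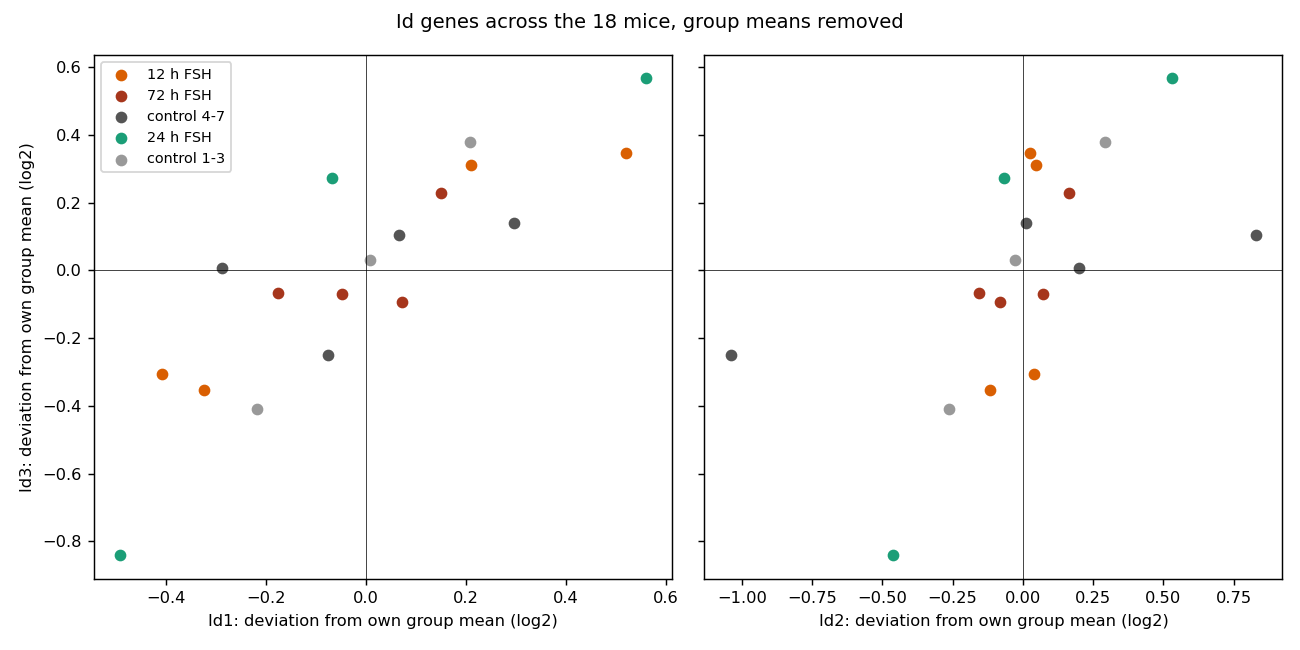
Deviation of each mouse from the mean of its own group and array set (log2) for Id1 (left, x axis) and Id2 (right, x axis) against Id3 (y axis), 1 point per mouse, n = 18. Id1 and Id3 follow each other in both array sets (r = 0.842 and 0.918), and for Id2 controls 5 and 6 lie apart at the ends of the x axis.

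The genes whose pattern was most like those of the members were sought for the 4 members with the smallest F test over the 3 times. Likeness was Pearson's r over the 18 arrays after the mean of the controls of the same set was taken away, so it includes the treatment effects. For Id1 the closest of 12392 other genes was Id3 (r = 0.885), and for Id3 the closest was Id1, followed for Id1 by Fbxo25 (0.746) and Sqstm1 (0.744). Id2 was in place 504 for Id3 and in place 2889 for Id1. For Bmpr1a the closest were Sptssa (0.930), Nbr1 (0.924) and Rbm39 (0.921), which fell at 24 h by 0.95, 0.95 and 1.10 on the log2 scale. For Bmp4 they were Dhrs1 (0.862), Nrf1 (0.854) and Tmem189 (0.849), and for Smad7 Plekho1 (0.815), Zdhhc2 (0.810) and Acot13 (0.804).

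Of 65 other genes of the pathway 55 were measured, in lists by role. At 12 h 0 rose and 3 fell, at 24 h 5 rose and 8 fell, and at 72 h 0 rose and 2 fell. These are 5.45%, 23.6% and 3.64% of the 55, beside 5.35%, 13.4% and 6.13% of all probe sets. For 72 h against 12 h 1 rose, 1.82% of the 55, beside 2.36% of all probe sets. The median differences of the 55 were -0.02, 0.01 and 0.01 at the 3 times, beside -0.00, 0.04 and 0.01 for all genes. None of the 55 was called for the 24 h effect minus the 12 h effect or the 72 h effect minus the 24 h effect by limma (14 and 9 at an unadjusted p below 0.05). With the 6 arrays of the 24 h set fitted alone none of the 13 calls at 24 h was kept. Against all 7 controls, with no array set, Bmp6 (-0.42) and Hey1 (-0.54) at 72 h, Fstl3 at 24 h (0.41) and Tcf4 at 12 h (-0.45) were not called. With quantile normalization the 24 h calls of Bmp10 (0.12), Chrdl2 (0.45), Tcf21 (-0.67) and Tcf12 (-0.83) were lost. With the mean of all probe sets of a gene those of Smad3 at 24 h (-0.63) and Tcf4 at 12 h (-0.44) were lost, and that of Tcf4 at 12 h also with its set alone (-0.57).

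Among 9 other BMP ligands, 3 rose at 24 h and 1 fell at 72 h, all of them on dim probe sets. These are 33.3% and 11.1% of the list, beside 13.4% and 6.13% of all probe sets. Bmp6, a ligand made by several tissues, read 2.82, 2.80, 2.73 and 2.79 in the 72 h mice, against 3.18, 3.59, 3.12 and 3.61 in controls 4 to 7, without overlap, which 12.6% of all probe sets also showed. It fell by 0.59 ± 0.13 (SE, limma adjusted p = 0.0107). At 12 h it read 2.87, 3.19, 2.78 and 2.88, a difference of -0.44 that was not called (adjusted p = 0.0551, limma). That 12 h difference was called without 12 h replicate 2 (-0.53), control 1 (-0.44), control 4 (-0.51) or control 6 (-0.53), and at the same -0.44 with trend and robust moderation or the mean of probe sets.

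Bmp5, close in sequence to Bmp6, read 3.40, 4.60 and 3.99 in the 24 h mice, against 2.86, 3.10 and 3.25 in controls 1 to 3, and rose by 0.93 ± 0.20 (SE, limma adjusted p = 0.00743). Its dimmer probe set differed by 0.07 and was not called. Gdf2, the ligand also known as BMP9, read 4.55, 4.34 and 4.55 at 24 h, against 3.93, 4.10 and 3.94, and rose by 0.49 (limma adjusted p = 0.0209). The Gdf2 call was lost without 24 h replicate 3 (0.45), control 1 (0.46) or control 3 (0.46). Bmp10, known as a cardiac ligand, read 2.43, 2.19 and 2.14, against 2.06, 2.08 and 2.09, and was called at 0.18 (limma adjusted p = 0.0476), at the floor of the array. The Bmp10 call was lost on leaving out any 1 of 16 of the 18 arrays, with values from 0.09 to 0.19, the lowest without 24 h replicate 1.

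Among 6 other receptors and co-receptors 1 fell at 12 h and at 24 h, Bambi, which encodes a receptor with no kinase domain that blocks BMP and transforming growth factor beta signals. That is 16.7% of the list at either time, beside 5.35% and 13.4% of all probe sets. Bambi read 7.57, 7.90, 7.84 and 8.15 at 12 h and 8.15, 8.21, 7.85 and 8.11 at 72 h, against 8.39, 8.87, 8.46 and 8.50 in controls 4 to 7. At 24 h it read 7.85, 7.52 and 7.09, against 8.39, 8.09 and 8.15 in controls 1 to 3. All treated mice lay below all controls of their set at each of the 3 times. Such groups, in either direction, did not overlap for 10.5%, 36.9% and 12.6% of all probe sets at 12, 24 and 72 h. Bambi fell by 0.69 ± 0.16 at 12 h and by 0.72 ± 0.18 at 24 h (SE, limma adjusted p = 0.0193 and 0.0198), and the difference of -0.48 at 72 h was not called (adjusted p = 0.108). The 12 h call was lost without 12 h replicate 1 (-0.59), 12 h replicate 3 (-0.68) or control 5 (-0.59), and the 24 h call without 24 h replicate 3 (-0.53) or control 1 (-0.63).

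Among 14 extracellular antagonists and modulators 2 rose at 24 h, 14.3% of the list, beside 13.4% of all probe sets. Fstl3, a follistatin-like protein that binds activins and some BMPs, read 7.03, 6.82 and 6.66 in the 24 h mice, against 5.79, 6.20 and 6.40 in controls 1 to 3. It rose by 0.71 ± 0.17 (SE, limma adjusted p = 0.0145), and the call was lost without control 1 (0.54). Fstl3 was also higher by 0.44 at 12 h and 0.33 at 72 h, and neither was called (limma adjusted p = 0.123 and 0.277). Chrdl2, a chordin-like BMP antagonist, was called at 0.58 on a dim probe set (limma adjusted p = 0.0303), with 2.36, 3.05 and 3.35 in the 24 h mice, against 2.29, 2.34 and 2.40. The Chrdl2 call was lost without 24 h replicate 2 (0.51), 24 h replicate 3 (0.36), control 1 (0.55) or control 2 (0.58).

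Among 9 other Smads and intracellular regulators 4 fell at 24 h and 0 rose, 44.4% of the list, beside 13.4% of all probe sets. The median difference of the list was -0.67, beside 0.04 for all genes. Of the 24 h calls 45.7% were higher over all probe sets, and 30.4% among probe sets above the median mean level. Whether the list fell more than genes of like brightness was not tested. Smad4, the shared partner Smad, read 9.02, 9.29 and 8.66 in the 24 h mice, against 9.82, 9.91 and 9.53 in controls 1 to 3, and fell by 0.76 ± 0.17 (SE, limma adjusted p = 0.00911). Of its other probe sets 1 fell by 0.64 (adjusted p = 0.00941, limma) and 1 differed by -0.55 without a call. At 72 h the main probe set of Smad4 was lower in all 4 mice than in controls 4 to 7, and 12.6% of all probe sets had no overlap at 72 h. The difference was -0.50 and was not called (limma adjusted p = 0.0618). That 72 h difference was called without 12 h replicate 1 or 24 h replicate 2 or 3, with its set fitted alone and with the filter on dim probe sets, all at the same -0.50, and with no array set (-0.65).

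Smad1, a Smad that BMP receptors activate, read 5.93, 5.68 and 6.08 at 24 h, against 6.79, 6.28 and 6.60 in controls 1 to 3, and fell by 0.67 ± 0.15 (SE, limma adjusted p = 0.0110). The Smad1 call was lost without 24 h replicate 2 (-0.56) or control 1 (-0.55). At 72 h Smad1 differed by -0.45, in mice that did not overlap with controls 4 to 7, which 12.6% of all probe sets also showed. It was not called (limma adjusted p = 0.0639), but was called without 12 h replicate 1 or control 2, with its set alone and with the filter on dim probe sets, at the same -0.45. Its dim probe set differed by -0.01 at 24 h.

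Smad3, which transduces activin and transforming growth factor beta signals, read 5.40, 4.30 and 5.30 at 24 h, against 5.84, 5.64 and 6.30 in controls 1 to 3. It fell by 0.92 ± 0.22 (SE, limma adjusted p = 0.0135). The same probe set read 4.11 to 4.24 in controls 4 to 7, far from controls 1 to 3, and against all 7 controls the 24 h difference turned to 0.08. Ski, a corepressor of Smad complexes, read 6.42, 5.98 and 6.29, against 7.46, 7.35 and 6.46, and fell by 0.86 (limma adjusted p = 0.0215). The Ski call was lost without 24 h replicate 2 (-0.74), control 1 (-0.68) or control 2 (-0.73). At 72 h Ski differed by -0.53, which was not called (limma adjusted p = 0.142). It was called without control 3 and with its array set fitted alone, at the same -0.53.

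Among 8 other BMP target genes 1 fell, Hey1, a transcription factor also known as a Notch target. That call, at 72 h, is 12.5% of the list, beside 6.13% of all probe sets. Hey1 read 4.51, 4.52, 4.84 and 4.85 in the 72 h mice, against 5.61, 6.04, 5.24 and 5.08 in controls 4 to 7, and fell by 0.81 ± 0.18 (SE, limma adjusted p = 0.0151). The Hey1 call was lost without 72 h replicate 2 (-0.76). At 24 h Hey1 read 4.09, 4.54 and 4.35, against 4.90, 4.87 and 4.81 in controls 1 to 3, a difference of -0.53 that was not called (limma adjusted p = 0.106).

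Among 9 basic helix-loop-helix genes whose products can pair with Id proteins or with their partners, 2 fell at 12 h and 3 fell at 24 h. These are 22.2% and 33.3% of the list, beside 5.35% and 13.4% of all probe sets. At 72 h 0 of the 9 were called on their main probe sets (4 at an unadjusted p below 0.05, limma). Tcf21, known from the mesenchyme of the developing gonad, read 8.35, 8.13, 8.34 and 8.47 at 12 h and 9.01, 9.32, 9.22 and 9.41 at 72 h, against 9.04, 9.70, 9.14 and 9.05 in controls 4 to 7. At 24 h it read 8.46, 8.47 and 7.61, against 9.01, 9.13 and 8.69 in controls 1 to 3. Tcf21 fell by 0.91 ± 0.19 at 12 h (SE, limma adjusted p = 0.0107) and by 0.76 ± 0.22 at 24 h (adjusted p = 0.0363), and at 72 h the difference was 0.01 with a 95% interval from -0.41 to 0.42. The 72 h mice were higher than the 12 h mice by 0.92 ± 0.19 (limma adjusted p = 0.0210).

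The Tcf21 call at 12 h was kept without any 1 array. The 24 h call of Tcf21 was lost without 24 h replicate 3 (-0.48), control 1 (-0.73) or control 2 (-0.67). The Tcf21 difference of 72 h against 12 h was lost as a call without 12 h replicate 2 (0.86) or 3 (0.92), or 72 h replicate 2 (0.89), 3 (0.93) or 4 (0.86).

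Tcf4 and Tcf12 encode E proteins, the direct partners of Id proteins. The main probe set of Tcf4 read 7.82, 7.94, 8.26 and 8.08 at 12 h, against 8.46, 8.81, 8.53 and 8.57 in controls 4 to 7, and 7.88, 7.45 and 7.48 at 24 h, against 8.45, 8.29 and 8.19 in controls 1 to 3. Tcf4 fell by 0.57 ± 0.14 at 12 h and by 0.71 ± 0.17 at 24 h (SE, limma adjusted p = 0.0326 and 0.0119). Of its 5 other probe sets 4 fell at 24 h, by 1.16 to 2.04, and the dim 1416725_at rose by 0.53, so the probe sets disagreed, and none of the 5 was called at 12 h. The 12 h call of Tcf4 was lost without 12 h replicate 1 (-0.50), 2 (-0.54) or 4 (-0.58), or control 5 (-0.49), 6 (-0.59) or 7 (-0.57), and the 24 h call without 24 h replicate 2 (-0.64) or control 1 (-0.64).

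Tcf12 read 8.74, 7.33 and 8.05 in the 24 h mice, against 9.43, 8.87 and 8.61 in controls 1 to 3, and fell by 0.93 (limma adjusted p = 0.0394) with overlapping groups. The Tcf12 call was lost on leaving out any 1 of 9 of the 18 arrays, with values from -0.98 to -0.58, the smallest in size without 24 h replicate 2. Its other probe set differed by -0.28 at 24 h without a call, and fell by 0.60 at 72 h (limma adjusted p = 0.0136).

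**Figure D5:**
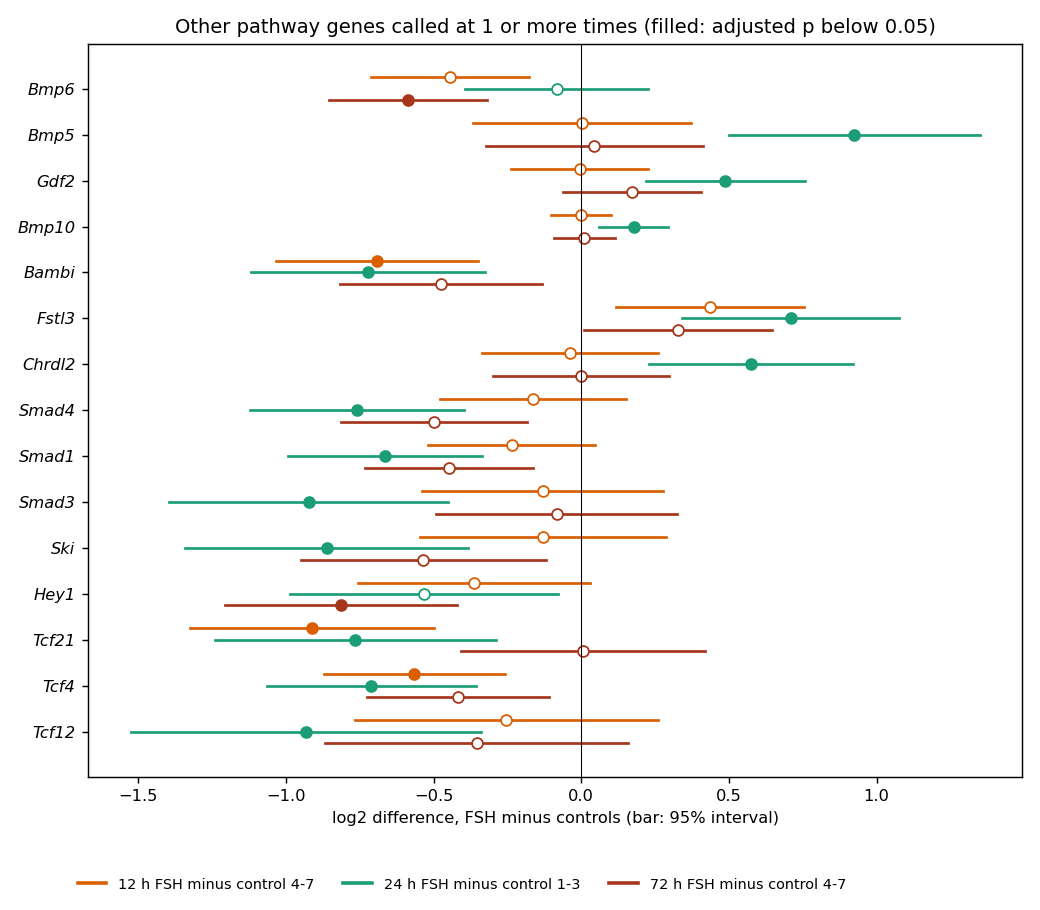
Log2 difference (x axis, points) with its 95% interval (bars) for the 15 other pathway genes called at 1 or more times, at 12 h, 24 h and 72 h of FSH against the controls of the same array set. Bambi is left of 0 at all 3 times (-0.69, -0.72 and -0.48), and Tcf21 is left of 0 at 12 h and 24 h (-0.91 and -0.76) and at 0.01 at 72 h.

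Markers of testis cells moved with treatment beside these genes. Over all probe sets 5.35%, 13.4% and 6.13% were called at 12, 24 and 72 h. The mean of the 10 endothelial markers was 3.95 to 4.11 at 12 h and 3.90 to 4.18 at 72 h, against 4.02 to 4.69 in controls 4 to 7, and 3.57 to 3.99 at 24 h, against 3.83 to 4.26 in controls 1 to 3. Of these markers 2 fell at 12 h (Vwf and Cldn5) and 1 at 24 h (Cldn5). The mean of the 9 Sertoli cell markers was 8.07 to 8.26 at 12 h and 8.66 to 8.91 at 72 h, against 8.22 to 8.49 in controls 4 to 7, and 8.29 to 8.56 at 24 h, against 8.17 to 8.31 in controls 1 to 3. Of the Sertoli cell markers Rhox5 and Shbg rose at 24 h and at 72 h and Fshr fell at each time, and the median difference of the 9 was -0.20 at 24 h and -0.10 at 72 h, opposite to the shift of the mean. The mean of the 6 Leydig cell markers was 7.64 to 8.02 at 12 h and 6.61 to 7.24 at 72 h, against 6.06 to 7.07 in controls 4 to 7, and 2 of them rose at 12 h (Cyp17a1 and Star). The mean of the 7 peritubular myoid markers was 8.14 to 8.62 at 12 h and 7.94 to 8.33 at 72 h, against 7.53 to 8.13 in controls 4 to 7, and 2 rose at 12 h (Myl9 and Tpm2). Of 8 germ cell markers 2 fell at 12 h (Sall4 and Dmc1) and 2 at 72 h (Stra8 and Sall4), and their mean was 8.70 to 9.14 at 12 h and 8.64 to 9.11 at 72 h, against 9.10 to 9.43 in controls 4 to 7. Of 8 macrophage markers 1 fell at 12 h (Csf1r) and 2 rose at 72 h (Cd68 and Mrc1), and their mean was 5.69 to 5.86 at 12 h and 6.31 to 6.71 at 72 h, against 5.93 to 6.38 in controls 4 to 7. The part of these shifts in the values of the BMP and Id genes was not tested. The 6 measured markers of epididymis and efferent duct, at 2.35 to 2.69 on average, and the 3 of red blood cells, at 2.40 to 2.80, lay near the floor in all mice.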

How the data were processed

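The authors deposited 1 table of log2 values per probe set of an Affymetrix MOE430A array, and the log2 scale was taken from the range of the values, 1.04 to 14.8. Per the submitters' processing notes RMA and GCRMA were used. Neither the versions nor the method behind the deposited table is stated in the sources used here. The table held 22690 probe sets. The 64 array controls were left out, and 22626 were tested with no filter on low values: 20380 had 1 gene symbol in the platform annotation, 691 several and 1555 none. All 10 members were found in RefSeq by gene identifier.

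The model was fitted per probe set with limma 3.58.1 under R 4.3.3 (lmFit and eBayes, 1 mean per group and array set, 13 residual degrees of freedom, two-sided), and 95% intervals use the moderated variance. The limma code was tested on simulated data. Correlations were computed in Python 3.11.15. Members, lists and array sets were chosen with earlier results of these data known. Named are all members, pathway genes called against controls (at most 6 per list by smallest p) and the 3 genes most like each of the 4 members with the smallest F test. The comparison of the control sets was added later.

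The labels do not say what a replicate number shares. Deviations of 24 h mice and controls 1 to 3 with the same number correlated at 0.179, 0.343 and 0.406. A replicate block was read as pairing there, but so few correlations within groups of 3 do not show that the mice were paired. The block changed a member's call only for Bmpr1b. The alternatives were no array set, each set alone, quantile normalization, a filter on dim probe sets, trend and robust moderation, the mean of a gene's probe sets, the replicate block and leaving out each array. Precision is limited by the number of arrays.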

Additional observations from a re-analysis of the deposited data

Results flagged for a closer look

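In 3 of 30 groups of 4 mice 1 mouse stood apart from the others of its group by Dixon's test, which chance does in about 1 in 20 groups. Smad7 read 3.33 in 12 h replicate 4, against 3.56 to 3.59 in the other 12 h mice. Id2 read 8.93 in 12 h replicate 2, against 9.08 to 9.10 in the others. Id3 read 8.50 in 72 h replicate 2, against 8.18 to 8.21 in the others. These groups have narrow ranges, and none of the 3 values changes a call.

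Tcf21 differed between 2 times of treatment: 72 h minus 12 h was 0.92 (log2, limma adjusted p = 0.0210).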

How the results depend on the processing

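Of 1410 values of the members over all alternatives 1333 kept their direction and side of the threshold, 69 that were not called changed sign, 7 became called and 1, Bmpr1a at 24 h with its array set alone, lost its call. Of 2130 values of the named pathway genes 1958 were kept, 84 lost a call, 41 gained a call and 46 that were not called changed sign. Smad3 at 24 h reversed, to 0.0804, with no array set in the model. Members called at 12 h were 1 (Bmp4) with the set alone. Members called at 24 h were 2 with no array set and 2 with the replicate block, against 0 with the set alone. Members called for the 24 h effect minus the 12 h effect, and for the 72 h effect minus the 24 h effect, were 2 each with no array set.

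Over all probe sets, 3023 were called at 24 h (45.7% higher), 8137 with no array set (64.9% higher), 393 with the set alone (38.7% higher) and 1678 to 3848 on leaving out an array. The 24 h effect minus the 12 h effect had 198 calls, 9098 with no array set and 94 to 756 on leaving out an array. The 72 h effect minus the 24 h effect had 84 calls, 7001 with no array set, 40 with the filter on dim probe sets and 46 to 399 on leaving out an array. For 72 h against 12 h 535 were called, 290 to 579 on leaving out an array. The set alone uses 6 arrays at 24 h and so has fewer degrees of freedom. The causes of the drop with the set alone and of the other shifts were not tested. The replicate block gave 4045 calls at 24 h and 499 for 72 h against 12 h, where same-numbered mice correlated at 0.0133 to 0.130 and the numbers were not read as pairs. Groups of 3 or 4 mice and dim probe sets (Bmp2, Bmpr1b, Bmpr2, Smad6, Smad7) limit what could be seen.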
